A study of Mus musculus with 1 sample.

Results

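The C-type lectin receptors of AMs (alveolar macrophages, the macrophages that live in the airspaces of the lung) were described together with the kinase Syk and the adaptor Card9, through which several of them signal. The group was chosen by name, as 7 receptors (Clec7a, Clec4n, Clec4d, Clec4e, Clec4a2, Clec4a3 and Clec12a) and the 2 signalling genes, 9 genes in all. Of these, 8 had a row among the 11918 genes of the single-cell values and were examined in all cells. Clec7a, typed as a polymorphic pseudogene in the GENCODE annotation, had no row and was not analysed here. A missing row does not show that AMs lack its RNA. The cells came from 1 library of CD45+CD11c+SiglecF+ AMs sorted from lung, labelled wild-type, of 8 to 12 weeks of age, and on an FVB/NJ background backcrossed to C57BL/6 for 10 generations. The study's account of the experiment describes these cells as Hdac3 fl/fl AMs without Cre, from 1 adult mouse, so the floxed Hdac3 alleles are shared by all cells examined. The 10x Genomics 3' assay (v2 chemistry) tags each captured RNA molecule with a unique molecular identifier (UMI), and 5000 sorted cells were loaded. With a single library there was no replicate and no test between mice, and every interval below covers counting error only.

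C-type lectin receptors are surface proteins that bind sugars and other ligands on fungi, mycobacteria and dying cells. Clec4n (Dectin-2), Clec4d (MCL) and Clec4e (Mincle) pair with the Fc receptor gamma chain, encoded by Fcer1g, whose phosphorylated tyrosines recruit the kinase Syk. Syk activity leads to assembly of the adaptor Card9 with Bcl10 and Malt1, to NF-kB activation and to cytokine and chemokine transcription. Clec4a2 and Clec12a instead carry an inhibitory tyrosine motif that recruits phosphatases such as Ptpn6 and Ptpn11, and Clec4a3 is a close relative of Clec4a2. Clec7a (Dectin-1) is the receptor for fungal beta-glucan.

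In GRCm38 with the GENCODE M21 annotation, the Clec4 genes form a cluster on chromosome 6. In order along it, Clec4a3 (chr6:122952515-122969875, plus strand) comes first, then Clec4a2 (chr6:123106428-123143999, plus strand), Clec4n (chr6:123229843-123247021, plus strand), Clec4d (chr6:123262111-123275265, plus strand) and Clec4e (chr6:123281789-123289870, minus strand). Clec4a4 and Clec4b1 lie between Clec4a3 and Clec4a2, and Clec4b2 lies between Clec4a2 and Clec4n. Clec4d and Clec4e point towards each other, with 6.5 kb between their 3' ends. Clec12a (chr6:129342691-129365303, plus strand) lies on the same chromosome, Syk is at chr13:52583173-52648792 on the plus strand and Card9 is at chr2:26352176-26360918 on the minus strand. Among the 8 genes, the annotated 3' ends of 7 shared no sequence of 98 bases, the length of the read, with a transcript of another gene, and Clec4a2 shared 5.43% of such sequences with Clec4a4, so a small part of its reads could belong to either gene.

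The 250 bases upstream of the RefSeq start sites of Clec4e and Clec4d (GRCm38.p6) are shown because these neighbours had the highest ratios in the cells rich in chemokine transcripts described below. They are written 5' to 3' along each gene, and the capitals mark matches on either strand to TTNNGNAA, a core of the sites bound by C/EBP factors, and to the TATA box letters TATAAA. The Clec4e stretch is chr6:123289872-123290121 on the minus strand and the Clec4d stretch is chr6:123261857-123262106 on the plus strand.
Clec4e: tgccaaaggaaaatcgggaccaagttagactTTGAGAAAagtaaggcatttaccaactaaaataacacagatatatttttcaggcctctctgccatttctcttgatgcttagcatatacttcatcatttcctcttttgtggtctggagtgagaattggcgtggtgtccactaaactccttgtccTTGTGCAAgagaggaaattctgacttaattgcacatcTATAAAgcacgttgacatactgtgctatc
Clec4d: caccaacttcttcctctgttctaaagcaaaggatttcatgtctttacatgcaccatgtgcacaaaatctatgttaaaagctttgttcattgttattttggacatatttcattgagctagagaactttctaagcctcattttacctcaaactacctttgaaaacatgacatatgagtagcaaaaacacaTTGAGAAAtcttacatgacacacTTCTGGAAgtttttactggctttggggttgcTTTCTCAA
Clec4e held 2 matches to TTNNGNAA, beginning 219 and 66 bases before the start, and a TATAAA match 29 bases before it. Clec4d held 3 matches to TTNNGNAA, beginning 62, 39 and 8 bases before the start, and no TATAAA. Such letters are common, since TTNNGNAA matched in 36.8% and TATAAA in 12.4% of the 32851 RefSeq promoters, searched over the same 250 upstream bases. The NF-kB consensus, present in 7.25% of these promoters, had no match in either stretch, and neither did the AP-1, CRE and STAT letters. The PU.1 letters GAGGAA, found in 23.3% of promoters, had 2 matches in Clec4e and 1 in Clec4d, which are not capitalised above. Clec12a and Clec4a2, which were not higher in the cells rich in chemokine transcripts, also held 2 matches each to TTNNGNAA. Card9 held 1, Clec4a3 held 0, and Syk held 0 or 1 depending on the start site. A match describes letters and is not a bound site.

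The library held 2055 cells and 7222978 UMIs, with 1143 to 8603 UMIs per cell (median 3278), and 3 UMIs in a cell of median depth were 0.0915% of its total. AM markers were broadly detected. All 16 AM markers examined had a UMI in at least 5% of cells, with Chil3 in 100%, Ear2 in 98.8%, Lpl in 97.6% and Siglecf, a gene of the sort, in 41.4%. Of the markers of other cells, 1 of 5 for monocytes, 1 of 5 for interstitial macrophages, 2 of 4 for neutrophils and 3 of 9 for lung epithelium passed the same limit, and none of 4 for dendritic cells or 3 for lymphocytes. The defining genes Ccr2 of monocytes, C1qa of interstitial macrophages and Zbtb46 of dendritic cells were found in 1.36%, 0.389% and 0.0973% of cells. Fn1 from the monocyte list was found in 52.7%, Epcam from the epithelial list in 58.1%, S100a8 and Mmp8 from the neutrophil list in 10.1% and 8.03%, and Apoe from the interstitial list in 9.002%. In 2 cells there were 10 or more UMIs of lymphocyte markers. In 384 cells, over 5% of the UMIs came from the 13 mitochondrial genes, although the methods describe removing such cells.

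Clec4n was by far the most abundant of the receptors. Its 5733 UMIs came from 1737 cells (84.5%, 95% Wilson interval 82.9 to 86.0), of which 471 held 1 UMI, 381 held 2 and 885 held 3 or more, up to 25. With all cells summed, Clec4n made up 7.94 of every 10000 UMIs (exact Poisson interval 7.73 to 8.15), the 194th highest total of the 11918 genes. Each UMI stands for the 3' end of 1 molecule, so levels were not divided by gene length, and capture can still differ between genes.

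The related receptors Clec4a3 and Clec4a2 came next. Clec4a3 had a UMI in 1050 cells (51.1%) and a level of 2.43 per 10000 (2.31 to 2.54), with at most 8 UMIs in a cell. Clec4a2, which carries the inhibitory motif, had a UMI in 1002 cells (48.8%) and a level of 2.23 per 10000 (2.12 to 2.34), with at most 10 UMIs in a cell. The level of Clec4n was 3.27 times that of Clec4a3 (3.10 to 3.45), and Clec4a3 exceeded Clec4a2 by a ratio of only 1.09 (1.02 to 1.17), a margin within reach of a difference in capture.

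The other receptors were found in a minority of cells. Clec4e, the receptor for mycobacterial cord factor, had 397 UMIs in 313 cells (15.2%, 13.7 to 16.8), of which 251 held 1 UMI and 17 held 3 or more, and its level was 0.550 per 10000 (0.497 to 0.606). Clec12a, an inhibitory receptor for uric acid crystals, had 281 UMIs in 249 cells (12.1%, 10.8 to 13.6) and a level of 0.389 per 10000. Clec4d, the partner of Clec4e at the cell surface, had 271 UMIs in 236 cells (11.5%, 10.2 to 12.9) and a level of 0.375 per 10000. The levels of Clec12a and Clec4d did not differ beyond counting error, with a ratio of 1.04 (0.874 to 1.23), whereas each other neighbour in the order Clec4n, Clec4a3, Clec4a2, Syk, Clec4e, Clec12a, Clec4d and Card9 differed by a ratio whose interval lay above 1.

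Of the signalling genes, Syk had 645 UMIs in 550 cells (26.8%, 24.9 to 28.7), a level of 0.893 per 10000. Card9 had 113 UMIs in 111 cells (5.40%, 4.50 to 6.46), a level of 0.156 per 10000, and only 2 of these cells held more than 1 UMI. The sort left no other cell type in which free RNA could be measured, so genes typical of other lung cells were set beside these shares. Sftpc, the surfactant protein C gene of type II epithelial cells, had a UMI in 6.86% of the same cells (5.85 to 8.04), Scgb1a1 of club cells in 5.50% (4.59 to 6.57) and S100a8 of neutrophils in 10.1% (8.85 to 11.4). The share of Card9 was not above these shares and could not be told from free RNA by them. The interval of Clec4d overlapped that of S100a8, and Clec12a did so too, while the intervals of Clec4e, Syk, Clec4a2, Clec4a3 and Clec4n lay above all of them. Sftpc, Scgb1a1 and S100a8 were among the most frequent markers of their lists. In these lists Sftpa1 (1.41%) and Csf3r (3.16%), for example, lay under Card9, and Epcam (58.1%) lay above every member but Clec4n. The part of free RNA in the shares of the members was not tested.

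**Figure D1:**
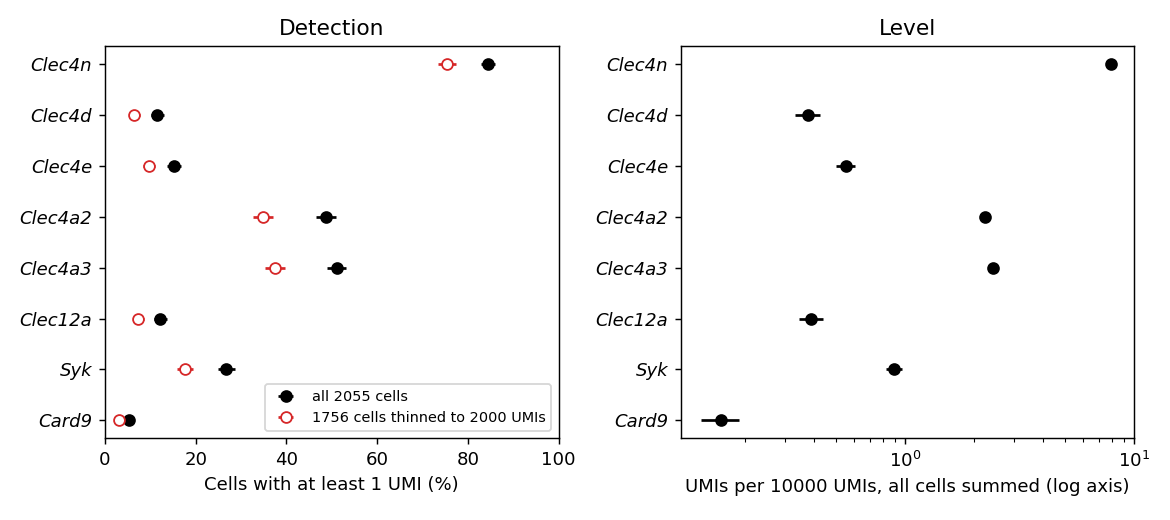
Detection and level of the 8 genes. Left, percent of cells with at least 1 UMI (points with 95% Wilson intervals) in all 2055 cells (filled) and in 1756 cells thinned to 2000 UMIs each (open). Right, UMIs per 10000 UMIs over all cells on a log axis, with exact Poisson intervals. Clec4n stands highest on both axes and Card9 lowest.

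Detection followed depth. Cells were cut into 4 groups of like size by depth. In the group with the fewest UMIs, Clec4n had a UMI in 68.5% of cells, and in the group with the most UMIs in 95.1%. Its level per 10000 moved less, from 6.90 to 8.28. For Clec4e the share went from 10.5% to 21.2% while the level was 0.658 in the former and 0.536 in the latter. When 1756 cells were thinned to 2000 UMIs each and the 299 shallower cells left out, Clec4n had a UMI in 75.5%, Clec4a3 in 37.4%, Clec4a2 in 34.8%, Syk in 17.5%, Clec4e in 9.62%, Clec12a in 7.29%, Clec4d in 6.44% and Card9 in 3.19% of cells, the same order as in all cells.

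The spread of UMIs between cells was then set against what 1 common level would give. If every cell held Clec4n at the same share of its UMIs, 89.7% of cells would have been found with a UMI, against the 84.5% counted. For Clec4e the corresponding values were 17.3% and 15.2%. In the thinned cells the variance of the UMIs divided by their mean was 1.41 for Clec4n, 1.15 for Clec4e and 1.13 for Clec4a2, beside a median of 1.03 and a 90th percentile of 1.13 over the 4502 genes found in at least 5% of thinned cells. Clec4d was at 1.07, and Clec4a3 (1.02), Clec12a (1.01), Syk (0.971) and Card9 (0.969) were near or under the median. Clec4n and Clec4e thus lay above the 90th percentile of genes in the unevenness of their UMIs over cells. Clec4a2 lay about at that percentile, and Clec4d between it and the median. The measure also grows with a gene's level.

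Genes that work with these receptors were taken from lists. Among the 8 adaptors and kinases upstream of Syk, 6 had a UMI in at least 5% of cells. Fcer1g, the gamma chain, reached 34.1 per 10000 with a UMI in 99.6% of cells, and Tyrobp (DAP12), the adaptor of other activating receptors, reached 24.9 per 10000 in 98.6%. Of the Src family kinases that phosphorylate these adaptors, Lyn was found in 52.3% of cells, Fgr in 19.5% and Fyn in 8.18%, and Src in 10 cells. Of 27 genes of the Syk and Card9 pathway, 21 had a UMI in at least 5% of cells. Bcl10 (25.2%) and Malt1 (15.4%), the partners of Card9, were each found in more cells than Card9, as were Prkcd (30.3%), the kinase that phosphorylates Card9, and Plcg2 (9.83%), which acts downstream of Syk. Of 11 phosphatases, ligases and adaptors that restrain the pathway, 9 passed the same limit, with Ptpn6 (SHP-1) in 38.3% and Ptpn11 (SHP-2) in 10.1% of cells.

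Among 21 other C-type lectins with a row, 11 had a UMI in at least 5% of cells. The mannose receptor Mrc1 (9.66 per 10000, 92.7% of cells) lay above Clec4n, and the oxidised LDL receptor Olr1 (4.80 per 10000, 72.1%) between Clec4n and Clec4a3. Clec4b1, a neighbour of Clec4a2 on chromosome 6 that also pairs with the gamma chain, was found in 27.3% of cells at 1.01 per 10000. Clec4a1, the neighbour of Clec4a3, was found in 18 cells. Some lectins that mark dendritic cells or other macrophages were nearly absent, with Clec9a in 16 cells, Cd209b in 3 and Clec10a in 2. Ly75, which dendritic cells also carry, was found in 813 cells (39.6%).

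Cells were next compared by their content of chemokine and cytokine transcripts. The 206 cells (10%) with the highest share of UMIs on Tnf, Il1a, Cxcl1, Cxcl2, Cxcl3, Ccl3 and Ccl4 were set against the other 1849 cells. None of the 7 genes is a member of the receptor group, and Cxcl2 held 63.3% of their UMIs. The score is a continuous range, and 39 cells lay within 10% of the lowest value in the high cells. Median depth was 3599 UMIs in the high cells and 3245 in the others. Of the 5938 genes with UMIs in at least 5% of cells that are not in the score, 2.71% were at least 1.5-fold higher and 6.4% at least 1.5-fold lower in the high cells, and the median ratio was 0.952.

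Clec4e was 3.31-fold higher in the chemokine and cytokine high cells (exact interval of the ratio 2.64 to 4.13), at 1.46 against 0.439 UMIs per 10000. A UMI of Clec4e was found in 36.4% of the high cells and 12.9% of the others, and in thinned cells in 23.8% (18.1 to 30.5) and 8% (6.76 to 9.44). Clec4d was 1.64-fold higher (1.16 to 2.26), at 0.575 against 0.351 per 10000, and in thinned cells it was found in 11.05% and 5.90% of cells. Clec12a was lower by a ratio of 0.597 (0.354 to 0.951), at 0.243 against 0.407 per 10000, from 19 UMIs in the high cells. In thinned cells Clec12a was found in 4.42% (2.26 to 8.48) of the high cells and 7.62% (6.41 to 9.03) of the others, intervals that overlap. Thus 2 of the 8 genes passed 1.5-fold upwards and 1 downwards.

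Clec4n was 1.31-fold higher (1.21 to 1.41), at 10.0 against 7.68 per 10000, which is under the 1.5-fold limit. The remaining members were near the median of all genes. Clec4a3 had a ratio of 1.03 (0.883 to 1.196), Syk of 1.03 (0.798 to 1.32), Clec4a2 of 0.895 (0.755 to 1.06) and Card9 of 0.799 (0.372 to 1.53), the last from 10 UMIs in the high cells. The wide interval of Card9 does not allow a change of 1.5-fold in either direction to be set aside at this depth.

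**Figure D2:**
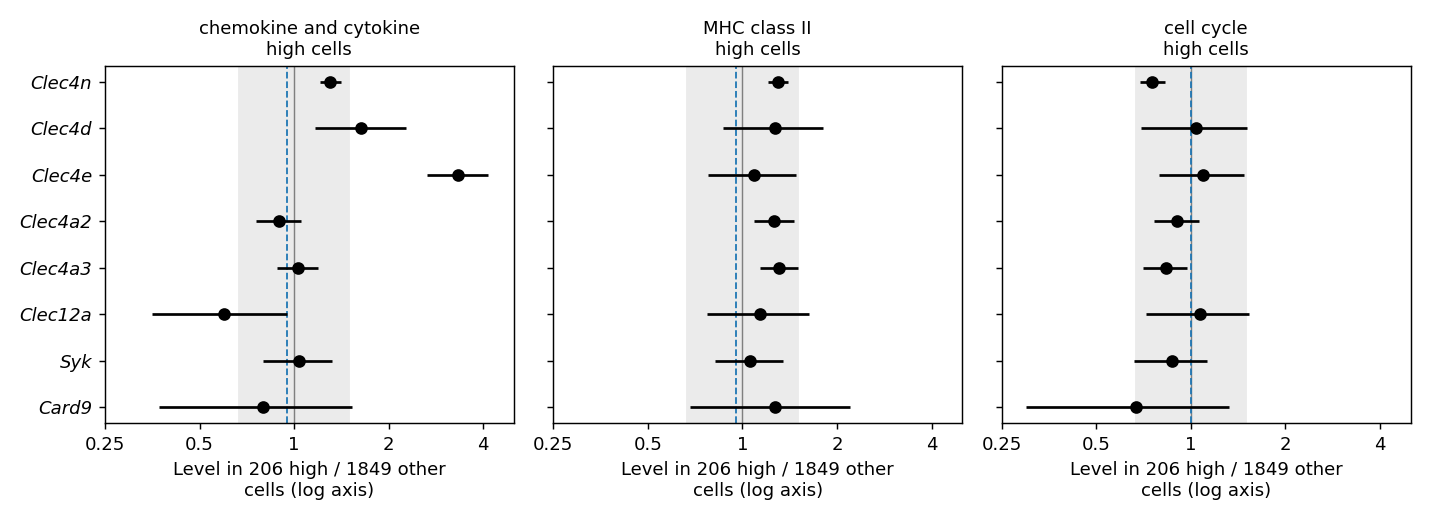
Level of each member in the 206 cells highest for a score divided by the level in the other 1849 cells, on a log axis with exact counting intervals, for the chemokine and cytokine, MHC class II and cell cycle scores. The grey band spans ratios under 1.5-fold and the dashed line is the median over all genes compared. Clec4e lies outside the band in the first panel with its whole interval, at 3.31, and no member lies outside it in the other panels.

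The cells were also cut into 5 groups of 411 by the same score. Clec4e was at 0.340, 0.352 and 0.343 per 10000 in the 3 lowest groups, at 0.551 in the next (0.436 to 0.686) and at 1.12 in the highest (0.957 to 1.30). The intervals of the 3 lowest groups overlapped, and the difference lay in the cells with the most chemokine UMIs. Clec4d stayed between 0.335 and 0.362 in the 4 lower groups and was at 0.484 (0.380 to 0.608) in the highest. Clec4n was between 7.18 and 7.95 in the 4 lower groups and at 9.42 (8.94 to 9.92) in the highest. Clec4d, Clec4a2, Clec4a3, Clec12a, Syk and Card9 had intervals that overlapped across all 5 groups.

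**Figure D3:**
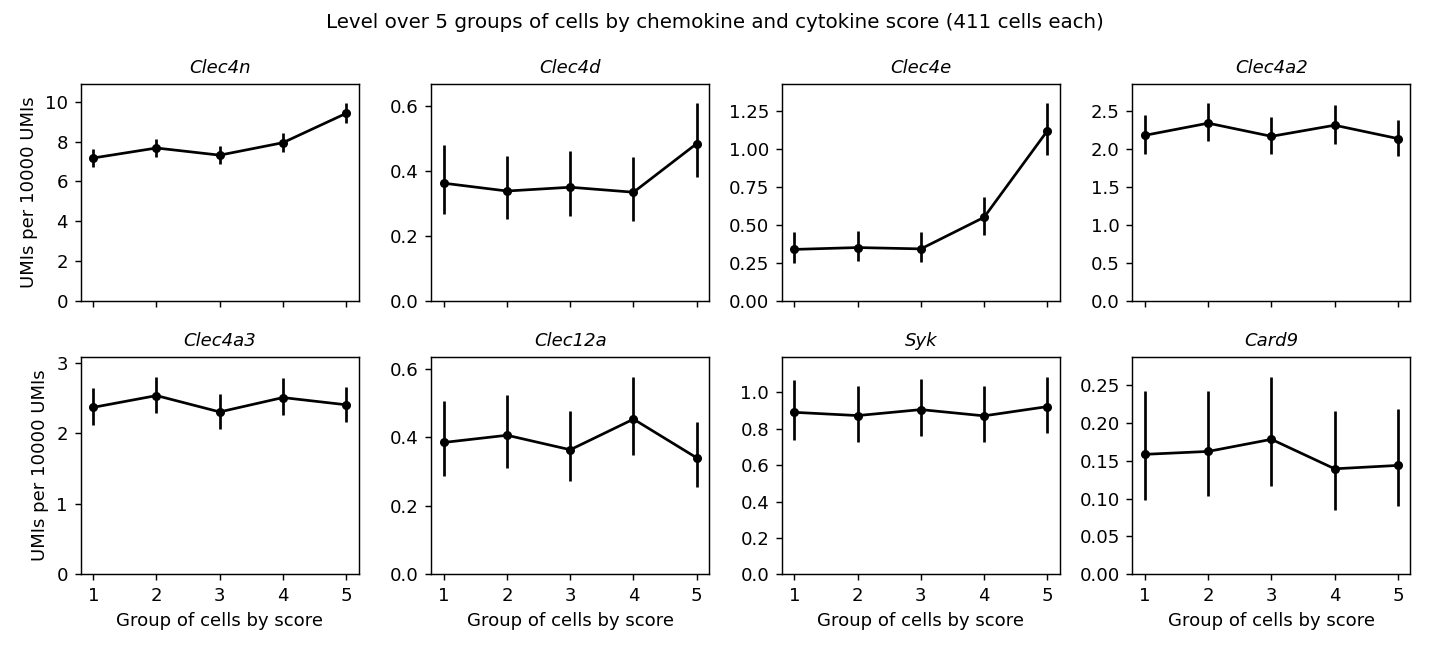
Level of each member in 5 groups of 411 cells ordered by the chemokine and cytokine score, in UMIs per 10000 UMIs with exact Poisson intervals and a separate vertical axis from 0 for each gene. Clec4e is level over the 3 lowest groups and reaches 1.12 in the highest.

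Read from the side of the receptor, the 1742 cells without a Clec4e UMI held 15.5 UMIs of the 7 score genes per 10000, the 251 cells with 1 UMI held 31.3 and the 62 cells with 2 or more held 73.3. The chemokine and cytokine high cells made up 7.52% (6.37 to 8.85), 19.9% (15.4 to 25.3) and 40.3% (29.0 to 52.7) of these cells. Median depth also went from 3228 to 3498 and 4461.5 UMIs over the same cells, and the part of depth in the shares was not tested, while the thinned values above hold depth equal. Over cells with 0, 1 and 2 or more Clec4d UMIs the score genes were at 18.8, 25.7 and 29.1 per 10000, and for Clec12a they were at 20.3, 17.1 and 11.04.

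Other genes moved with the same high cells. Of the 18 immediate-early and heat shock genes, which respond quickly to handling and stress, 9 were at least 1.5-fold higher and the summed level was 99.6 against 62.1 per 10000. When the cells were cut into 3 groups of 685 by that sum, the Clec4e ratio was 4.28 (3.13 to 5.87) in the group with the most such UMIs, where 144 of the 206 high cells lay. It was 0.905 (0.356 to 1.93) in the middle group, from 7 UMIs in 45 high cells, and 3.58 (1.67 to 6.87) in the lowest, from 10 UMIs in 17 high cells. Clec4d had ratios of 2.49 (0.784 to 6.08), 1.90 (0.946 to 3.49) and 1.41 (0.870 to 2.22) from the lowest to the highest of these groups, the last under 1.5-fold. Clec4n was at 1.96 (1.57 to 2.42) in the lowest group and under 1.5-fold in the others, and Clec4a2 was at 0.208 (0.0428 to 0.612) in the lowest, from 3 UMIs in its 17 high cells. The part of the immediate-early genes in the Clec4e result was not otherwise tested. The 16 AM markers summed to 293 against 286 per 10000 in the high and other cells, with 1 of 16 past 1.5-fold. The 4 neutrophil markers summed to 0.690 against 0.748, the 5 monocyte markers to 3.97 against 3.30 (ratio 1.204, 1.07 to 1.36) and the 9 lung epithelial markers to 3.74 against 3.53. The 5 interstitial macrophage markers were lower, at 0.409 against 0.722 (ratio 0.566, 0.383 to 0.811), as were the 3 lymphocyte markers, at 0.141 against 1.58, of whose 1028 UMIs 940 were Jchain in 1 cell. The part of these markers in the member ratios was not tested.

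With Cxcl2 left out of the score, an alternative chosen after seeing the data, the Clec4e ratio was 2.75 (2.17 to 3.47), the Clec4d ratio was 1.54 (1.08 to 2.15) and the Clec12a ratio was 0.784 (0.493 to 1.19), which no longer passed 1.5-fold. With Ccl4 left out the Clec4d ratio was 1.48, just under the limit. Neither Clec4d nor Clec12a passed in the 20% of cells with the highest score, where their ratios were 1.40 and 0.846, while that of Clec4e was 2.82.

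Among the pathway genes, 3 of the 21 compared were at least 1.5-fold higher in the chemokine and cytokine high cells and 2 were lower. Nlrp3, the inflammasome sensor, had a ratio of 2.13 (1.83 to 2.46), Malt1 of 1.78 (1.34 to 2.33) and Bcl10 of 1.58 (1.26 to 1.96). Both partners of Card9 thus passed. Card9 itself did not, but its interval (0.372 to 1.53) overlapped those of both, so a difference from them is not shown. Hras (0.545, 0.277 to 0.976) and the kinase subunit Pik3cg (0.525, 0.267 to 0.939) were lower, each from 12 UMIs in the high cells. None of the 6 adaptors and kinases upstream of Syk and none of the 9 restraining genes passed. Of the 11 other lectins only Clec5a, a receptor that signals through Tyrobp, passed, with a ratio of 1.66 whose interval of 0.959 to 2.74 included 1. Just under the limit of 5% of cells, and named after their values were seen, Clec1a (3.93, 2.49 to 6.07), Cd69 (2.43, 1.51 to 3.80) and Colec12 (1.96, 1.16 to 3.19) were also higher, Clec1a by more than Clec4e. Of the 11 NF-kB subunits and feedback genes 7 were at least 1.5-fold higher, among them Nfkbiz at 11.6 and Nfkbia at 5.01, and none was lower.

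The 206 cells highest for MHC class II transcripts (Cd74, H2-Aa, H2-Ab1 and H2-Eb1) held none of the 8 genes past 1.5-fold. Of the 5941 genes compared, 1.51% were higher and 6.56% lower by that limit. Clec4a3 had a ratio of 1.31 (1.13 to 1.498), Clec4n of 1.30 (1.203 to 1.40) and Clec4a2 of 1.26 (1.09 to 1.46), intervals above 1, against a median of 0.954 over all genes. The intervals of the other 5 members included 1, with Clec4d at 1.27, Card9 at 1.27, Clec12a at 1.14, Clec4e at 1.08 and Syk at 1.06. Both cells with lymphocyte transcripts were among the high cells, and without them the ratio of Clec4n was 1.31 and that of Clec4a3 was 1.32. Among markers of other cells, the 5 monocyte markers (1.32, 1.18 to 1.48) and the 9 lung epithelial markers (1.202, 1.07 to 1.35) were higher in the same cells. Over all cells most UMIs of these lists were Fn1 (2295) and Epcam (2178). Intervals included 1 for interstitial macrophage markers (1.14, 0.852 to 1.49), neutrophil markers (0.908, 0.670 to 1.21) and dendritic cell markers (2.43, 0.702 to 6.87). The part of these markers in the member ratios was not tested. Median depth was 3644 UMIs in the high and 3246 in the other cells, and 21 cells were also chemokine and cytokine high.

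In the 206 cells highest for cell cycle transcripts no member passed 1.5-fold either, while 7.71% of 5939 genes were higher and 5.2% lower. Clec4n was at 6.16 against 8.17 per 10000, a ratio of 0.755 (0.688 to 0.827), and Clec4a3 had a ratio of 0.832 (0.706 to 0.975). Card9 had a ratio of 0.670 (0.298 to 1.32) from 9 UMIs, and the remaining 5 members had ratios between 0.868 and 1.09 with intervals that included 1. These high cells were deeper, with a median of 3928.5 UMIs against 3235. The 16 AM markers summed to 251 against 292 per 10000 in the same cells, with none past 1.5-fold.

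Correlations were taken over the 2055 cells of this library between deposited log values, as a description. The cells share 1 library and differ in depth, and sparse counts keep such values low. The mean log value of the 7 score genes had a correlation of at least 0.1 with 1.65% of the 5938 genes compared, and the median over genes was 0.00411. Clec4e had r = 0.223, the 18th highest of the 5938 genes, and Clec4n had r = 0.101, at the limit. Clec4d had r = 0.0636, Syk r = 0.0316, Clec4a3 r = 0.00463, Card9 r = -0.00484, Clec4a2 r = -0.0143 and Clec12a r = -0.0215. In the deposited scaled scores, from which depth and mitochondrial content had been regressed, Clec4e kept r = 0.213 and Clec4n had r = 0.0687, so only Clec4e stayed at 0.1 or above.

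Gene by gene, Clec4e had a correlation of at least 0.1 with 6 of 13 cytokines and chemokines, namely Cxcl2 (0.199), Cxcl1 (0.161), Tnf (0.160), Il6 (0.120), Il1a (0.114) and Il1b (0.112), beside 16 of all 5937 genes (0.269%). It also reached that limit with 3 of 11 NF-kB subunits and feedback genes, namely the feedback genes Nfkbiz (0.162), Nfkbia (0.151) and Tnfaip3 (0.114), and with 2 of 18 immediate-early and heat shock genes, Egr1 (0.159) and Ier2 (0.107). Among the subunits themselves its correlation was 0.0853 with Nfkb1, 0.0682 with Rel and -0.0103 with Rela. Clec4n reached the limit with Il18 (0.120), the survival genes Bcl2a1b (0.153) and Bcl2a1d (0.118), which are near-identical copies whose reads can be hard to tell apart, and the chaperone Hspa8 (0.110), that is 4 of the 42 genes, beside 48 of all 5937 genes (0.808%). Its correlation was 0.0852 with Cxcl2 and 0.0606 with Tnf. Clec4d, Clec4a3, Clec12a, Syk and Card9 reached it with none of the 42 genes. Over all 5937 genes they reached it with 2 (0.0337%), 7 (0.118%), 1 (0.0168%), 0 and 1 (0.0168%). Shares that low leave none of 42 uninformative about inflammatory genes in particular. Clec4a2 reached the limit with Bcl2a1b alone (0.108), beside 17 of all 5937 genes (0.286%). In the scaled scores Clec4e stayed at 0.1 or above with every gene that had reached the limit. Clec4n did so with Bcl2a1b alone (0.107), while Il18 was at 0.0816, Bcl2a1d at 0.0718 and Hspa8 at 0.0896. Clec4a2 with Bcl2a1b was at 0.0779.

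**Figure D4:**
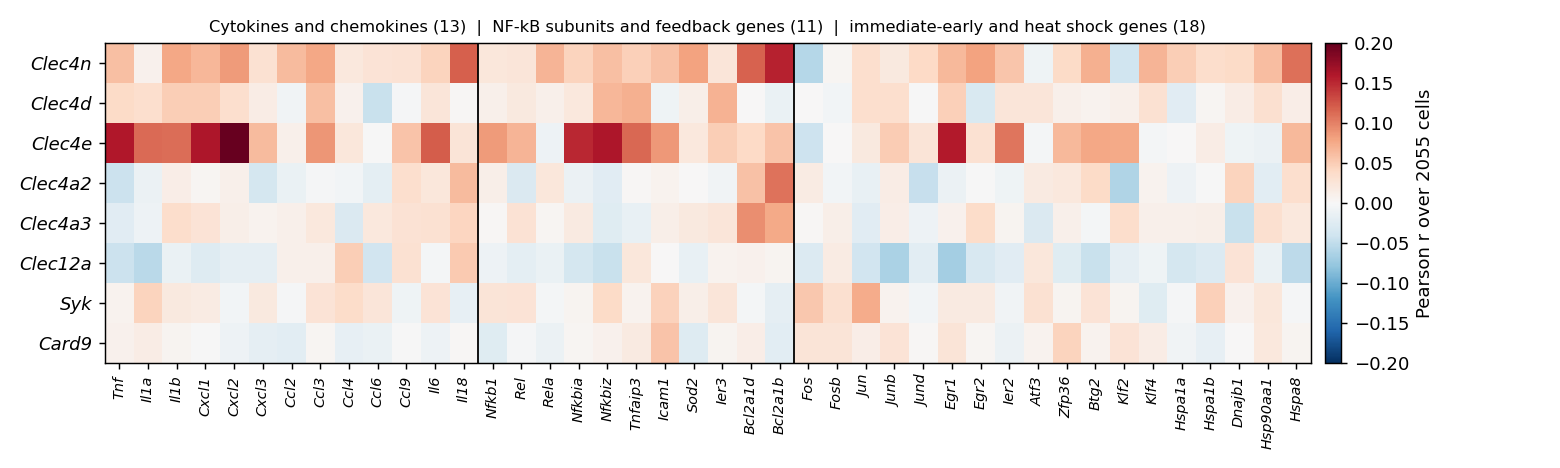
Pearson correlation over 2055 cells between the deposited log values of each member (rows) and of 42 inflammatory and stress genes (columns), grouped as 13 cytokines and chemokines, 11 NF-kB subunits and feedback genes and 18 immediate-early and heat shock genes. Blue marks negative and red positive values, and the strongest is Clec4e with Cxcl2 at 0.199.

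The genes most like each member were sought among those with UMIs in at least 10% of cells, by Pearson's r of log values over the 2055 cells. For Clec4e they were Cxcl2 (0.199), Nfkbiz (0.162) and Tnf (0.160), and these held the same 3 places in the scaled scores. For Clec4n they were Cd9 (0.179), Lyz2 (0.157) and Bcl2a1b (0.153), for Clec4a3 Cd9 (0.117), Lyz2 (0.112) and Fcer1g (0.107), and for Clec4a2 Chil3 (0.157), Ctss (0.150) and Lyz2 (0.143), which are abundant macrophage transcripts. For Clec4d they were Ms4a6c (0.137), the metallothionein Mt1 (0.105) and the cystine transporter Slc7a11 (0.0970). Clec12a, nearest to Ear1 (0.0802), Abhd12 (0.0801) and Psenen (0.0788), and Syk, nearest to Ino80d (0.0984), Smad4 (0.0826) and Mdm2 (0.0742), had no gene at 0.1.

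Detection of several receptors in 1 cell was counted next. At least 1 of the 6 receptors had a UMI in 1944 cells (94.6%, 93.5 to 95.5) and none did in 111 cells, whose median depth of 2013 UMIs was low. Exactly 1 receptor was found in 406 cells, 2 in 730, 3 in 553, 4 in 216, 5 in 36 and all 6 in 3 cells, and the median depth went from 2500.5 to 6649 UMIs along that order. In thinned cells 34.2% held 1 receptor and 37.0% held 2. Clec4n, Clec4a2 and Clec4a3 were found together in 518 cells and Clec4n, Clec4d and Clec4e in 51. A receptor and Fcer1g were found together in 1938 cells, a receptor and Syk in 522, and a receptor, Syk and Card9 in 28.

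Whether members were found together more often than apart was read against the product of their shares within 10 bins of cells of like depth. Over all pairs of the 5945 genes with UMIs in at least 5% of cells, 7.15% had a ratio of at least 1.2, and 1 of the 28 pairs of members did. The pairs that hold Clec4n could not reach that ratio, because Clec4n had a UMI in 84.5% of cells. Clec4d and Clec4e, the neighbours that form a receptor pair, were found together in 52 cells where the product gave 40.04, a ratio of 1.30 whose counting interval of 0.970 to 1.70 included 1. Among the 1849 cells outside the chemokine and cytokine high cells they were together in 36 cells where the product gave 28.6, a ratio of 1.26 (0.882 to 1.74). The other pairs lay between 0.842 (Clec4e with Clec12a, 36 cells) and 1.15 (Clec4a3 with Card9, 70 cells), and the interval of each of the 28 pairs included 1. Syk and Card9 were together in 29 cells, with a ratio of 0.902 (0.604 to 1.29). These Poisson intervals let the joint count vary freely, although the shares of the genes bound it. They are too wide for common genes such as Clec4n. They therefore do not settle whether a pair was found together or apart once depth was held alike.

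**Figure D5:**
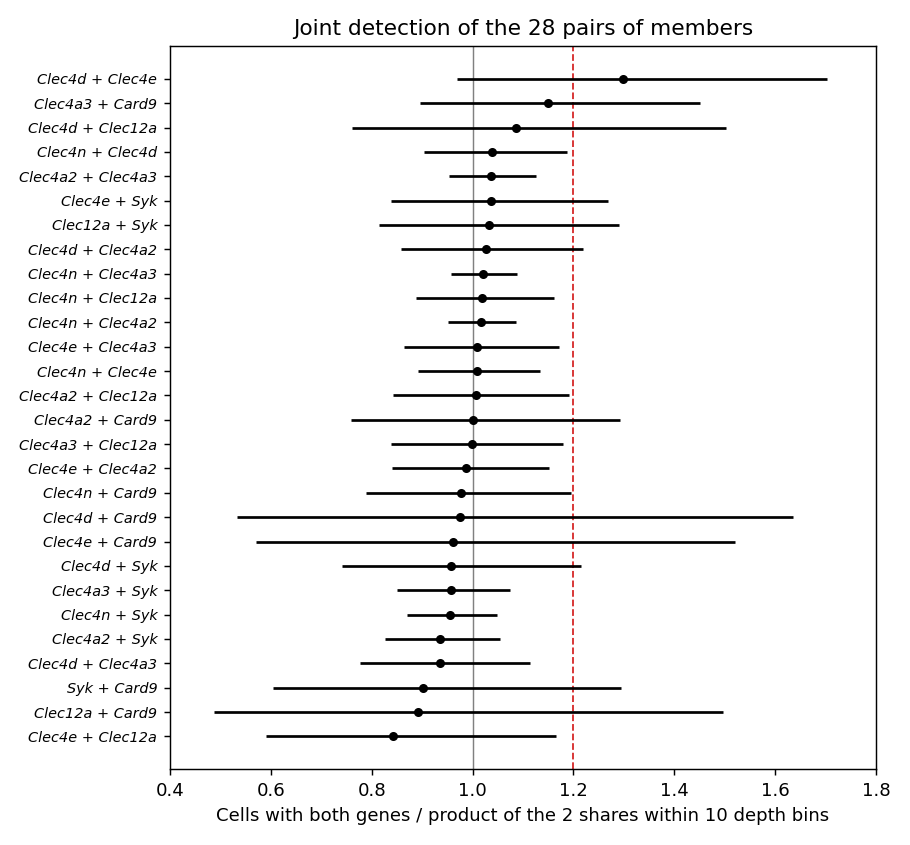
Cells with UMIs of both genes of a pair divided by the number given by the product of their shares within 10 depth bins, for the 28 pairs of members, with exact Poisson intervals. The dashed line marks 1.2, which Clec4d with Clec4e alone passes, at 1.30, and every interval includes 1. Pairs that hold Clec4n cannot reach 1.2.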

How the data were processed

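One library of mouse AMs was measured. Per the paper's methods, the authors counted UMIs with Cell Ranger on mm10 and describe filters on genes per cell and mitochondrial content. With Seurat, the authors deposited natural log values, ln(1 + x), where x is a gene's UMIs scaled to 10000 in its cell. The authors also deposited a scaled score, the log value regressed on UMIs and mitochondrial content. Whole UMIs were recovered from the log values (100% within 0.01 of a whole number). Doublets were not called here.

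Levels are summed UMIs per 10000. Cells were thinned to 2000 UMIs with a fixed seed. Intervals are 95% Wilson for shares, exact Poisson for counts and exact conditional for ratios, and cover counting error only. With 1 library no test was made: a gene was counted when past 1.5-fold among genes with UMIs in at least 5% of cells, at r of at least 0.1, or at a joint ratio of at least 1.2. Named genes were the members, genes of lists where a list is discussed, and the 3 genes most like each member found in at least 10% of cells. The members and lists were chosen with earlier results of these data known. Promoters came from RefSeq (GRCm38.p6), which matched 7 of the 8 members, and Clec4n had no entry. Motifs searched were TTNNGNAA, TATAAA, the NF-kB consensus, and the letters of AP-1 (TGANTCA), PU.1 (GAGGAA), CRE (TGACGTCA) and STAT (TTCNNNGAA). Steps were tested on simulated data in Python 3.11.15, numpy 2.4.6, scipy 1.17.1 and pandas 2.3.3. Alternatives covered group size, thinning to 2000 or 1200 UMIs, averaging over cells, the denominator, cells with at most 5% mitochondrial UMIs, gene filters, depth bins and type of correlation.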

Additional observations from a re-analysis of the deposited data

How the results depend on the processing

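No paired analysis was possible because there is only 1 library. The number of members past 1.5-fold in the chemokine and cytokine high cells was 3. It was 1 (Clec4e) with the top 20% of cells and 4 with the top 5%, where Card9 (0.648) passed too. The cause was not tested. In the middle of 3 groups of cells by immediate-early and heat shock genes, an alternative added after seeing the data, the Clec4e ratio turned to 0.905 from 7 UMIs, and over the other 15 alternatives it stayed above 1.5. The counts for MHC class II high cells (0) and cell cycle high cells (0) became 2 and 2 with the top 5% of cells. For MHC class II the members past the limit were Clec4d (1.54) and Card9 (0.641). For the cell cycle they were the abundant receptors Clec4n (0.661) and Clec4a3 (0.561). The cell cycle count became 1 with the top 20% and 1 in cells with at most 5% mitochondrial UMIs, in each case Card9. With the scaled scores, rank correlation, thinning or at most 5% mitochondrial UMIs, 1 member in place of 2 correlated with the score at 0.1 or above, Clec4e, at 0.179 to 0.230. Pairs found together at least 1.2 times numbered 3 with 1 bin and 4 in thinned cells, in place of 1. Of 24 recomputed shares of cells 16 left their interval, those from thinning, as fewer UMIs give, and of 16 recomputed levels 1 did. With genes in at least 1% of cells as background, 6.19% were higher and 14.4% lower in the chemokine and cytokine high cells. Depth limits Card9, Clec12a and Clec4d most, which rest on 113, 281 and 271 UMIs.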
